A study of Mus musculus with 4 samples.

Results

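The cortex arrays were read for 33 marker genes of neighbouring brain regions, 16 of striatal and 17 of thalamic neurons, to judge how much subcortical RNA the samples held. The genes were listed by symbol, and a gene was measured if the platform annotation paired its symbol with a probe set. This held for 32 of the 33, or 15 striatal and 17 thalamic genes, among 19505 symbols on the array. Adora2a, the adenosine receptor of indirect-pathway neurons, was not analysed here. The tissue was cerebral cortex, labelled as brain cortex, from males of SAMP8, a senescence-prone mouse strain with early memory loss. All mice were caged singly at 7 months of age and kept so for 4 months. The TCQA group had 2 arrays and took 5 mg/kg of TCQA orally each day, beginning at 11 months of age and lasting 1 month; the compound is given here by its abbreviation. The control group had 2 arrays and was given MilliQ water. Whether an array came from 1 mouse or a pool, or 2 arrays from different mice, is not stated in the labels, so the errors and p-values cover only array-to-array spread, part of which may be technical.

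The striatum lies under the cortex, separated from it by white matter. Its principal cells are inhibitory medium spiny neurons, which answer dopamine through D1 receptors in the direct pathway or D2 receptors in the indirect pathway and pass the signal on through cyclic AMP. The thalamus lies deeper and sends excitatory axons to the cortex; its relay neurons use the vesicular glutamate transporter encoded by Slc17a6 and keep the transcription factor Tcf7l2 in adult life. In mouse, some genes used as markers of these regions are also transcribed in the cortex itself, in deep-layer neurons, interneurons, glia or vessels. Of the measured genes, 5 striatal (Drd1, Ppp1r1b, Foxp1, Meis2 and Gng7) and 7 thalamic ones (Lef1, Rora, Ptpn3, Amotl1, Cit, Adarb1 and Vav3) were placed in that class from general knowledge. The placing was made with earlier results of these data known and was not tested. A gene left out of the class may still be transcribed in cortex. In bulk tissue, fewer cells of a type and less RNA per cell cannot be told apart.

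None of the 32 genes passed the test between the groups, and for Tcf7l2, Slc17a6, Isl1 and Gpr149, among others, the 2 arrays of a group lay further apart than the group means. In limma with Benjamini-Hochberg adjustment over all 22206 gene probe sets, 0 of the 32 passed, against 0.0% of all probe sets, and the smallest adjusted p among the genes was 0.800. At an unadjusted p under 0.05, 0 of the 32 were higher with TCQA, against 3.38% of all probe sets, and 0 were lower, against 2.86%. The depositors' criterion, which adds a fold change over 2, was met by 0 of the 32 and by 0.374% of all probe sets. Both TCQA arrays lay above both control arrays for 6 of the 32 genes, against 18.9% of all probe sets, and below them for 2, against 17.8%. Those shares are close to or under the background. Over the striatal genes the median log2 difference of TCQA minus control was -0.00285, with 7 means higher and 8 lower. For the thalamic genes it was 0.11, with 10 higher and 7 lower, and for all probe sets 0.01. The differences ran between -0.39 and 0.57 on the log2 scale for the striatal genes and between -0.30 and 0.88 for the thalamic genes. The fit had 2 arrays a group, and intervals were wide, so a p over the threshold does not show that the groups were alike.

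**Figure D1:**
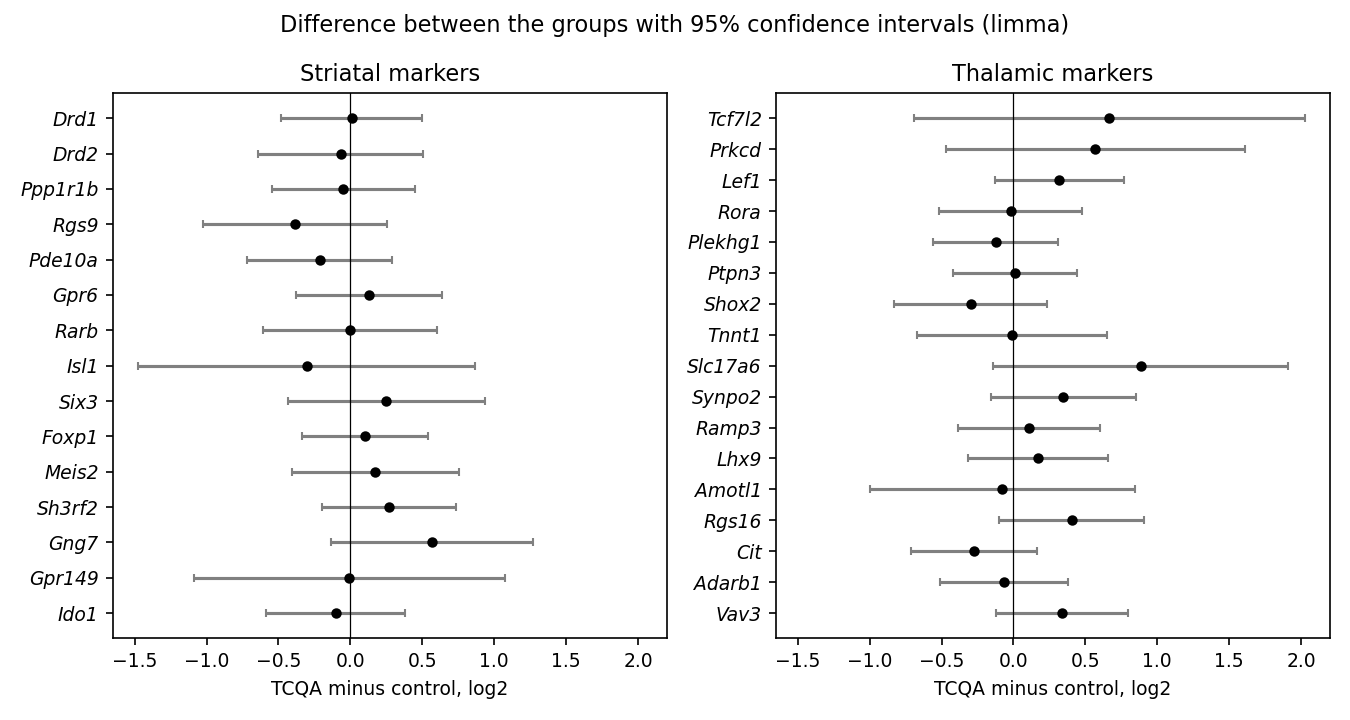
Difference in log2 signal, TCQA minus control, for each striatal (left) and thalamic gene (right), with points for the limma estimate and bars for its 95% confidence interval. All 32 intervals cross 0, and Slc17a6 has the largest estimate, at 0.88.

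Signals of a probe set can be compared between arrays, and no probe set was set against another gene's. As a yardstick, signals were set against the probe sets that the array names negative controls. These are not a background free of signal, as their median lay above the median of all gene probe sets on each array. On all 4 arrays 11 of the 15 striatal genes and 11 of the 17 thalamic genes lay above the median of the negative controls, which was 7.21 and 7.23 on the TCQA arrays and 7.32 and 7.17 on the control arrays. This held for 46.6% of all probe sets. For 2 striatal genes (Gpr149 and Ido1) and 6 thalamic genes (Lef1, Shox2, Synpo2, Lhx9, Amotl1 and Vav3) no array did. Isl1 and Six3 lay above it on some arrays. Above the upper quartile of the negative controls, which was 8.57 and 8.57 with TCQA and 8.75 and 8.55 in control, 10 striatal and 9 thalamic genes lay on all 4 arrays, against 34.7% of all probe sets. Signals below these levels are less certain in size.

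Among the striatal receptors the signals were nearly level over the groups. Drd1, the dopamine receptor that stimulates cyclic AMP in direct-pathway neurons, had signals of 11.38 and 11.68 with TCQA, against 11.40 and 11.65 in control. It differed by 0.01 (95% confidence interval -0.48 to 0.50; adjusted p by limma, 0.996). In each group one array was near 11.4 and the other near 11.7, so the groups overlapped almost fully. Drd2, the inhibitory dopamine receptor of indirect-pathway neurons, had 11.29 and 11.86 with TCQA and 11.59 and 11.69 in control, a difference of -0.07 (SE 0.24). The TCQA arrays were the lowest and the highest of the 4, with both control arrays between them. Gpr6, an orphan receptor of indirect-pathway neurons that raises cyclic AMP without a known ligand bound, had 9.92 and 10.27 with TCQA and 9.84 and 10.10 in control. Gpr149, another orphan receptor, was dim, at 6.04 and 7.23 with TCQA and 6.22 and 7.06 in control. Its arrays formed 2 levels about 1 log2 unit apart, and each group held 1 array at each level.

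Among the signalling genes downstream of dopamine Rgs9 and Gng7 had the widest differences, and in all 4 genes the groups overlapped. Pde10a, the phosphodiesterase that breaks down cyclic AMP and cyclic GMP in medium spiny neurons, had 15.16 and 15.47 with TCQA and 15.38 and 15.67 in control. Ppp1r1b encodes DARPP-32, which inhibits protein phosphatase 1 once protein kinase A has phosphorylated it, and had 12.77 and 13.12 with TCQA and 13.10 and 12.89 in control. Rgs9, which speeds the shut-off of inhibitory G proteins, had 13.59 and 14.29 with TCQA and 14.24 and 14.41 in control, a difference of -0.39 (SE 0.26). TCQA replicate 1 stood below the other 3 arrays, and the Rgs9 difference rested on it: it was -0.04 without TCQA replicate 1 (unadjusted p = 0.884) and -0.73 without TCQA replicate 2 (unadjusted p = 0.0188, limma adjusted p = 0.531). Gng7, a G protein gamma subunit that couples striatal receptors to adenylyl cyclase, had the largest striatal difference. Its signals were 12.72 and 13.35 with TCQA and 12.74 and 12.20 in control, which differed by 0.57 (95% confidence interval -0.14 to 1.27; adjusted p by limma, 0.812). TCQA replicate 2 was high and control replicate 2 low, while the other arrays were level. The difference was 0.84 without control replicate 1 (unadjusted p = 0.0414) and 0.88 without TCQA replicate 1 (unadjusted p = 0.0171). It was 0.25 without TCQA replicate 2 (unadjusted p = 0.417) and 0.30 without control replicate 2 (unadjusted p = 0.400).

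Of the striatal transcription factors, Isl1 varied most. Isl1, a LIM-homeodomain factor of direct-pathway neurons and of cholinergic interneurons, had 6.95 and 7.94 with TCQA and 7.12 and 8.37 in control. In both groups the array numbered 2 was about 1 log2 unit above the array numbered 1, and the group difference of -0.30 (SE 0.48) was smaller than either gap. The 250 bases before its RefSeq transcription start (GRCm38.p6, chr13:116309689-116309938, minus strand) are shown as the promoter of the striatal factor whose level changed most from array to array, with capitals for the CCAAT boxes.
Isl1: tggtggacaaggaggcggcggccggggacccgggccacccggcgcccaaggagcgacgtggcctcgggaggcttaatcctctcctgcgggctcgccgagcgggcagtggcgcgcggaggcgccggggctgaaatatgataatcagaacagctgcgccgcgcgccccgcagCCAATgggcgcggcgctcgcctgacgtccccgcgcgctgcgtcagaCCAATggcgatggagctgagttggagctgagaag
Rarb, the retinoic acid receptor beta, had 11.29 and 11.78 with TCQA and 11.32 and 11.75 in control, again with the array numbered 2 higher in each group. Six3, a homeodomain factor needed for indirect-pathway neurons and also found in the thalamic reticular nucleus, had 7.36 and 7.75 with TCQA and 6.95 and 7.65 in control. Foxp1, a forkhead factor that cortical neurons also use, stayed within a range of 0.22 over the 4 arrays. Meis2, a homeodomain factor shared with cortex, ran the other way in the TCQA group, with 15.06 and 14.46 with TCQA and 14.56 and 14.61 in control, and TCQA replicate 2 as its lowest array. Of the remaining genes, Sh3rf2, a ubiquitin ligase and scaffold, had 8.11 and 8.11 with TCQA and 7.68 and 8.00 in control. Ido1, which starts the conversion of tryptophan to kynurenine, stayed between 4.88 and 5.25, below the negative control median on each array.

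**Figure D2:**
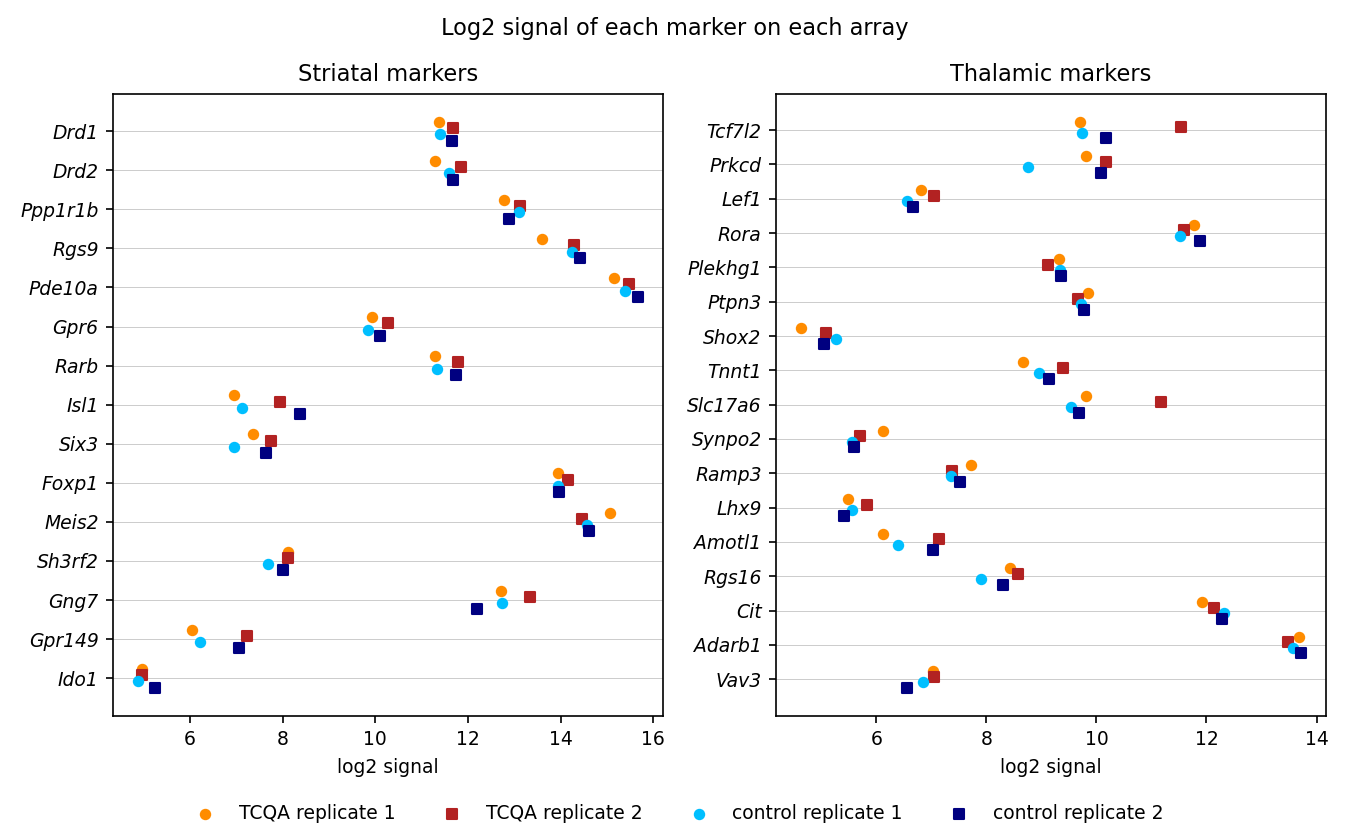
Log2 signal (horizontal axis) of each striatal (left) and thalamic gene (right) on the 4 arrays, 1 point an array, orange and red for TCQA and light and dark blue for control, circles for replicate 1 and squares for replicate 2. Tcf7l2 and Slc17a6 have 1 TCQA point well to the right of the other 3, and Isl1 and Gpr149 have both squares to the right of both circles.

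Over the striatal genes as a group the arrays differed in a way that crossed the treatment. TCQA replicate 2 was above TCQA replicate 1 for 14 of the 15 genes, with a median gap of 0.35 on the log2 scale, and control replicate 2 was above control replicate 1 for 13 of the 15, with a median gap of 0.26. Both held for 12 of the 15 genes, against 26.4% of all probe sets. The reverse in both groups was seen for 0 of the 15. Among the 10 striatal genes that were not placed in the class also transcribed in cortex, both held for 10, with median gaps of 0.44 in the TCQA group and 0.34 in the control group. The 5 genes of that class had both for 2. The class was placed with earlier results of these data known, so these counts are a description only. Over all probe sets the median gaps were -0.0027 in the TCQA group and 0.015 in the control group. The TCQA gap was near 0 for Sh3rf2 (0.0066) and Ido1 (0.011). Gpr149 and Ido1 lay above the negative control median on no array, and Isl1 and Six3 on some arrays only. The correlation of the TCQA gap with the control gap was 0.41 over the 15 genes, all read on the same 4 arrays, and is given as a description. The numbers are the labels' replicate numbers, and nothing in the labels ties the arrays numbered 2 to each other. The mean log2 signal of the 15 genes was 10.70 and 11.10 with TCQA and 10.73 and 11.02 in control. Replicate 2 was thus the higher array in each group, and 2 arrays a group do not show that the groups were alike.

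Striatal genes outside the list were also read. Of 24 measured, 13 were higher on replicate 2 in both groups, a share above the 26.4% of all probe sets, and 0 were higher or lower with TCQA at an unadjusted p under 0.05. Penk, the enkephalin precursor of indirect-pathway neurons, had 16.43 and 16.97 with TCQA and 16.56 and 16.77 in control. The widest spreads were those of Drd3, a dopamine receptor concentrated in the ventral striatum, and of Tac1, the substance P precursor of direct-pathway neurons. Drd3 had 5.94 and 7.36 with TCQA and 6.64 and 7.71 in control, and Tac1 had 13.28 and 14.48 with TCQA and 13.76 and 14.47 in control. Slc5a7, the choline transporter of cholinergic neurons, which also carry Isl1, had 7.05 and 9.17 with TCQA and 8.01 and 8.54 in control. Of the 4 cholinergic neuron genes measured, 2 were higher on replicate 2 in both groups and 1 was lower in both. On no array did 3 of these 4 genes lie above the negative control median. For Penk, Drd3, Tac1 and Slc5a7 the 2 groups overlapped, with the higher array of each group being replicate 2. Drd3 lay above the negative control median on 2 of the 4 arrays. Of the 24 striatal genes outside the list 1 was lower on replicate 2 in both groups, Chrm4. Its signals were 9.99 and 9.72 with TCQA and 10.40 and 10.21 in control, so its groups did not overlap. The Chrm4 difference was -0.45 (limma unadjusted p = 0.0581, adjusted p = 0.799).

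**Figure D3:**
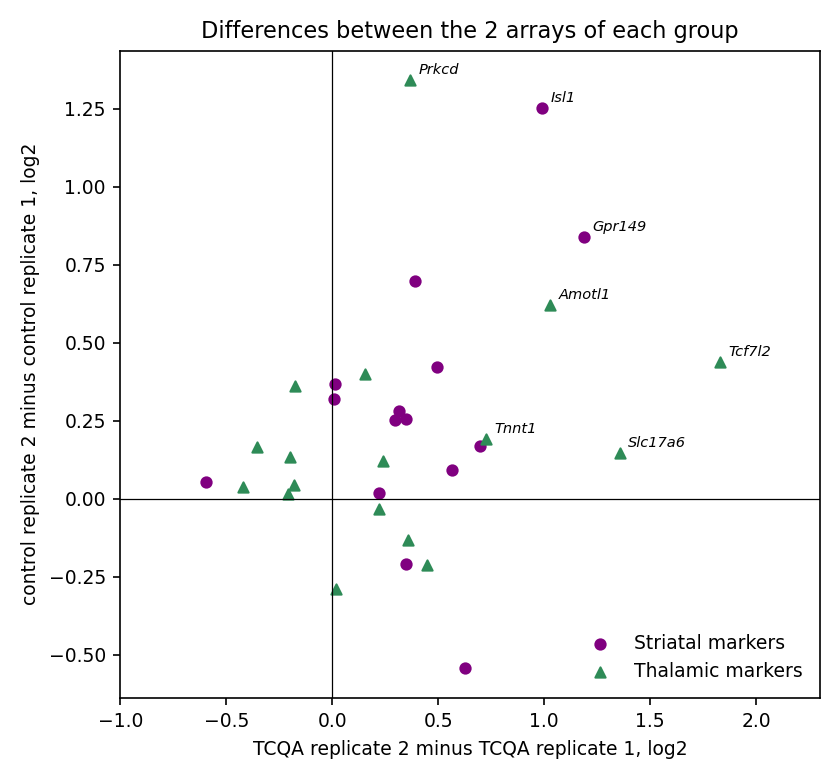
Difference between the 2 arrays of the TCQA group (horizontal axis) and of the control group (vertical axis), replicate 2 minus replicate 1 on the log2 scale, with 1 point a gene, circles for striatal and triangles for thalamic genes. Of the striatal points 12 of 15 lie in the upper right part. Tcf7l2 and Slc17a6 lie far to the right, with control differences of 0.44 and 0.15.

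In the thalamic list Tcf7l2 and Slc17a6 departed on one array and Prkcd on another. The median range over the 4 arrays was 0.50 for the thalamic genes and 0.51 for the striatal ones. The widest thalamic ranges belonged to Tcf7l2, Slc17a6, Prkcd and Amotl1, each over 1 log2 unit. Ranges over 1 were seen for 4 of 17 thalamic and 3 of 15 striatal genes (Isl1, Gpr149 and Gng7), against 7.31% of all probe sets. Tcf7l2, a transcription factor of the Wnt pathway that sets the identity of thalamic relay neurons, had signals of 9.71 and 11.54 with TCQA and 9.74 and 10.18 in control. Slc17a6, which loads glutamate into vesicles of thalamic relay neurons, had 9.82 and 11.17 with TCQA and 9.54 and 9.68 in control. TCQA replicate 2 stood alone at the top for both, by 1.83 for Tcf7l2 and 1.36 for Slc17a6 over the other TCQA array. The group difference was 0.67 for Tcf7l2 (95% confidence interval -0.69 to 2.02; adjusted p by limma, 0.865) and 0.88 for Slc17a6 (95% confidence interval -0.14 to 1.91; adjusted p by limma, 0.800). It depended on that array: the Tcf7l2 difference was -0.25 without TCQA replicate 2 and 1.58 without TCQA replicate 1, and the Slc17a6 difference was 0.21 and 1.56. Without TCQA replicate 1 the adjusted p by limma was 0.300 for Tcf7l2 and 0.207 for Slc17a6.

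The 250 bases before the RefSeq starts of these 2 genes (GRCm38.p6) are shown because their signals departed on the same array. They lie on the plus strand at chr19:55741560-55741809 for Tcf7l2 and chr7:51621580-51621829 for Slc17a6, and capitals mark GC boxes, here read as CCGCCC, some of which overlap.
Tcf7l2: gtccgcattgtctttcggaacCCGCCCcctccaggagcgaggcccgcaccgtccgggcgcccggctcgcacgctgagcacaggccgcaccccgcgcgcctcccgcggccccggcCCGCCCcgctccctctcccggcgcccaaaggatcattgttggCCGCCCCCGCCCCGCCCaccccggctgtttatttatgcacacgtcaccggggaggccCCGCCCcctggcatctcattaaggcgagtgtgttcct
Slc17a6: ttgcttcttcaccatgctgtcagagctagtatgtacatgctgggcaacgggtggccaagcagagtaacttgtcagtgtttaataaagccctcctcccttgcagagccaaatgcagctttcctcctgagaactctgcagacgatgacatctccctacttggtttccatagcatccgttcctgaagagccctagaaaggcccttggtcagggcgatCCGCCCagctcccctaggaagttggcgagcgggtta
The windows were searched on both strands for the GC box (GGGCGG), the CCAAT box (CCAAT) and the core bound by TCF and LEF factors (CTTTGA). In these 3 windows no match of one motif overlapped a match of another. Tcf7l2 had 6 GC boxes, Slc17a6 had 1 and Isl1 had 0; Isl1 had 2 CCAAT boxes, and the TCF and LEF core was in 0 of the 3 windows. A GC box was in 13 of the 17 thalamic and 5 of the 11 striatal windows found, against 42.7% of 17491 windows of protein-coding genes. A CCAAT box was in 4 of the 17 and 6 of the 11, against 36.5%, and the TCF and LEF core in 2 of the 17 and 3 of the 11, against 13.1%. A match is a string in the window and no evidence of a bound site.

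Prkcd, a protein kinase C isoform dense in thalamic relay nuclei, departed on another array. Its signals were 9.81 and 10.17 with TCQA and 8.75 and 10.09 in control, with control replicate 1 below the other 3. It differed by 0.57 (95% confidence interval -0.47 to 1.61; adjusted p by limma, 0.851), but by -0.10 without control replicate 1. Leaving out control replicate 2 instead gave 1.24 (unadjusted p = 0.00373, adjusted p by limma 0.797). Tnnt1, the slow troponin T that thalamic neurons transcribe, had 8.67 and 9.40 with TCQA and 8.95 and 9.14 in control, with TCQA arrays at both extremes. Amotl1, a cell junction protein also found in vessels, was dim, at 6.12 and 7.15 with TCQA and 6.40 and 7.02 in control, with replicate 2 higher in each group.

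For the other thalamic transcription factors the differences ran between -0.30 for Shox2 and 0.32 for Lef1. Rora, a nuclear receptor also made in cortical layer IV, had 3 probe sets with differences of 0.04, -0.02 and 0.08. Its brightest probe set had 11.77 and 11.60 with TCQA and 11.52 and 11.88 in control. Lef1, a relative of Tcf7l2 also found in brain endothelium, had 6.81 and 7.05 with TCQA and 6.55 and 6.67 in control, so that the groups did not overlap but lay under the negative control median. Shox2 and Lhx9, homeodomain factors of thalamic development, stayed between 4.63 and 5.26 and between 5.42 and 5.83, under that median.

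Of the thalamic signalling genes other than Prkcd, Ptpn3 and Plekhg1 varied least over the arrays and Rgs16 most. Ptpn3, a tyrosine phosphatase, had the smallest range of all the genes, 0.18, at 9.85 and 9.67 with TCQA and 9.72 and 9.77 in control. Plekhg1, a guanine nucleotide exchange factor, had 9.32 and 9.11 with TCQA and 9.33 and 9.35 in control, and Adarb1, the enzyme that edits glutamate receptor transcripts, had 13.68 and 13.48 with TCQA and 13.58 and 13.71 in control. Cit, the citron kinase, had 11.92 and 12.14 with TCQA and 12.32 and 12.29 in control. For Plekhg1 and Cit both TCQA arrays lay below both control arrays, by small steps, with differences of -0.12 and -0.27. Rgs16, which shuts off inhibitory G proteins, had 8.43 and 8.58 with TCQA and 7.90 and 8.30 in control, a difference of 0.40 (SE 0.21, limma adjusted p = 0.812). It was one of the 6 genes with both TCQA arrays on top, beside Slc17a6, Lef1, Sh3rf2, Synpo2 and Vav3. Without control replicate 2 the Rgs16 difference was 0.60 (unadjusted p = 0.0496). Ramp3, which modifies the ligand choice of peptide receptors, had 7.73 and 7.37 with TCQA and 7.36 and 7.52 in control. Vav3, another exchange factor, stayed between 6.55 and 7.04, and Synpo2, an actin-binding protein, between 5.55 and 6.13.

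The top signal came from TCQA replicate 2 for 9 of the 17 thalamic and 10 of the 15 striatal genes, against 25.6% of all probe sets. This was not particular to these lists, as it also held for 6 of 8 endothelial and 5 of 8 myelin genes. It held for 1 of 15 cortical excitatory and 1 of 8 hippocampal genes. The bottom signal came from control replicate 1 for 7 of the 17 and 5 of the 15, against 27.1%. Replicate 2 was above replicate 1 in both groups for 7 of the 17 thalamic genes, against 26.4% of all probe sets. It was so for 5 of the 10 thalamic genes not placed in the class also transcribed in cortex. The mean log2 signal of the 17 genes was 8.64 and 8.95 with TCQA and 8.52 and 8.72 in control. Of the 15 thalamic genes outside the list, 3 were higher with TCQA at an unadjusted p under 0.05 and 0 lower, against 3.38% and 2.86% of all probe sets. They were Calb2, a calcium-binding protein that cortical interneurons also make, Zic1, which the meninges also make, and Rab37, a small GTPase, which lay under the negative control median on all 4 arrays. Calb2 had 11.26 and 10.87 with TCQA and 9.42 and 9.71 in control. Zic1 had 11.22 and 11.79 with TCQA and 8.50 and 10.72 in control, with control replicate 1 lowest by a wide step, as for Prkcd. The limma adjusted p was 0.787 or higher for all 3. TCQA replicate 1 was the highest array for Calb2, while for Tcf7l2 it was nearly level with control replicate 1, at 9.71 and 9.74. Whether the thalamic genes followed one order of arrays was not tested.

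Genes of other tissue were read on the same arrays. Cortical excitatory neuron genes went the other way from the striatal ones: replicate 2 was below replicate 1 in both groups for 10 of the 15 measured, against 24.9% of all probe sets. Their mean log2 signal was 12.59 and 12.16 with TCQA and 12.68 and 12.46 in control, and 13 of the 15 lay above the upper quartile of the negative controls on all 4 arrays. Neurod6, a transcription factor of cortical excitatory neurons, had 11.76 and 10.45 with TCQA and 11.31 and 11.43 in control. It was thus lower on replicate 2 in the TCQA group only. Choroid plexus genes had means of 7.00 and 7.57 with TCQA and 6.23 and 7.97 in control. Their replicate 2 was above replicate 1 in both groups for 9 of 11, against 26.4% of all probe sets. However, 2 of the 11 lay above the negative control median on all 4 arrays, and 4 on no array. Ttr, the transthyretin gene that defines that epithelium, had 12.23 and 14.97 with TCQA and 7.49 and 16.42 in control. Hypothalamic genes had means of 5.28 and 6.54 with TCQA and 5.37 and 5.36 in control. TCQA replicate 2 was on top for 7 of 9, against 25.6% of all probe sets. However, 8 of the 9 lay under the negative control median on all 4 arrays. Pmch, the precursor of melanin-concentrating hormone, made by neurons of the lateral hypothalamus, had 5.43 and 10.32 with TCQA and 5.96 and 5.37 in control. Pmch, the remaining gene, was above that median on 1 array, TCQA replicate 2, the same array that stood alone for Tcf7l2 and Slc17a6. The part that tissue from other regions had in the levels of the 32 genes was not tested.

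**Figure D4:**
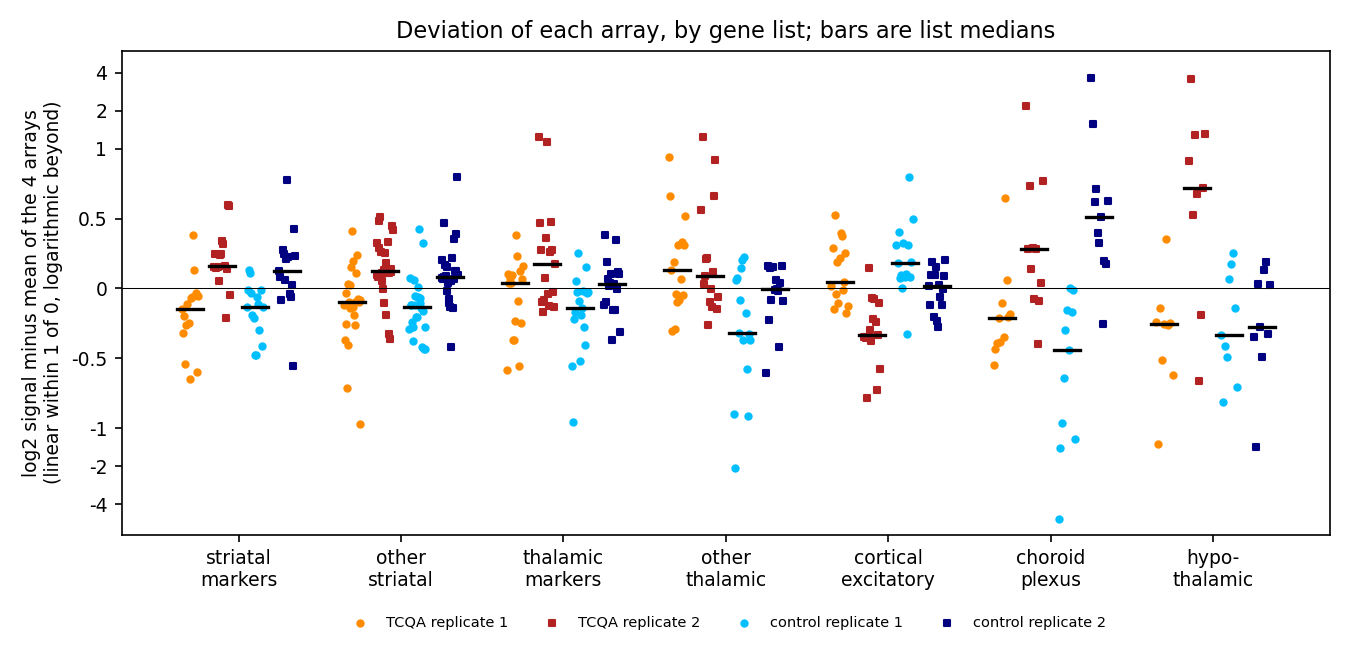
Log2 signal of each gene on each array minus its mean over the 4 arrays (vertical axis, linear within 1 of 0 and logarithmic beyond), for 7 gene lists along the horizontal axis, with 1 point a gene and array and black bars for list medians. The striatal medians are -0.14 and 0.16 on the TCQA arrays and -0.13 and 0.12 on the control arrays, and the cortical excitatory median is lowest on TCQA replicate 2, at -0.33.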

How the data were processed

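Total RNA of 4 cortex samples was hybridised to Clariom S mouse arrays. The deposited log2 values are signals per probe set, which the authors made with SST-RMA in the Transcriptome Analysis Console, per the labels' protocols. No genome build is stated for them. The table held 28846 probe sets, 6640 of them controls, which were left out of the tests. Names came from the platform annotation: 19572 of the 22206 gene probe sets had 1 symbol, 0 had several and 2634 had none here. The brightest probe set stood for a symbol with several. Groups were taken from sample titles. TCQA was compared with control by limma 3.58.1 in R 4.3.3 (lmFit, eBayes, two-sided, 2 residual degrees of freedom, prior 4.23) with Benjamini-Hochberg adjustment over all gene probe sets, after the procedure was tested on simulated data. With so few arrays precision is limited: log2 differences had a median standard error of 0.20. Correlations between arrays over genes were 0.991 to 0.993.

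Array levels were described by each signal, its deviation from the mean of the 4 arrays and the range, without a test. The genes and lists were chosen with earlier results of these data known. All listed genes could be named; genes of other lists were named if they were Ttr, Calb2, Zic1 or Penk, had one of the 2 smallest p-values in a direction, or one of the 2 widest ranges of their list; another gene of that rule is not reported here. Promoter windows are those of RefSeq (GRCm38.p6), found for 11 striatal and 17 thalamic genes, 1 a gene, nearest to the annotated start. Alternatives were the moderation, the prior, quantile normalization, a filter on dim probe sets, the mean over probe sets, the replicate number as a block, leaving out each array, and leaving out genes also transcribed in cortex.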

Additional observations from a re-analysis of the deposited data

How the results depend on the processing

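The medians of the group difference moved by less than the spread between replicates (the SD of a list's median signal within groups, 0.28 for the striatal and 0.30 for the thalamic list), which is wider than the medians, so they have no settled direction. The striatal median of -0.00285 ran between -0.14 and 0.21 with 1 array left out and was 0.01 in probe sets at or above the median signal. The thalamic median of 0.11 ran between -0.01 and 0.35 with 1 array left out, was 0.01 in those probe sets and 0.26 without genes also in cortex. The thalamic deviation of TCQA replicate 2 was 0.18, and -0.03 in those probe sets; that of TCQA replicate 1 was 0.04, and -0.03 without genes also in cortex. The counts of striatal and thalamic genes at an unadjusted p under 0.05 by limma were 0, against 1386 of all 22206 probe sets. With a prior that follows the mean signal they were 1 (Gng7) and 1 (Slc17a6), against 1526 of all probe sets. With 1 array left out the difference ran from 0.25 to 0.88 for Gng7, from -0.73 to -0.04 for Rgs9 and from 0.21 to 1.56 for Slc17a6. The lone array of a group was then assumed to vary like the other group. With the replicate block 1 thalamic gene passed, Slc17a6 at an unadjusted p of 0.0316 by limma, against 1425 of all 22206 probe sets. The labels do not say what a replicate number marks, and the correlation of the deviations of same-numbered arrays was 0.05, so the numbers were not taken as pairs. Over all probe sets 83 met the depositors' criterion, against 25 without moderation, 36 of 11103 at or above the median signal, and 160 to 291 with 1 array left out; the adjusted count was 0, and 0 to 4 with 1 array left out. With 1 array left out, the direction turned for Isl1 (-0.93 to 0.32), Prkcd (-0.10 to 1.24) and Tcf7l2 (-0.25 to 1.58), and Isl1 stood at 0.19 without TCQA replicate 1; the cause was not tested. The signals of dim genes, under the negative control median, are less certain in size.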

Other observations

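Lists of other regions and cells gave these counts. Beside them, 3.38% of all probe sets were higher with TCQA and 2.86% lower at an unadjusted p under 0.05 by limma. Of 9 habenular genes 1 was higher with TCQA at an unadjusted p under 0.05, Chrna3, a nicotinic receptor subunit, with 7.10 and 7.02 with TCQA and 6.45 and 6.12 in control, under the negative control median on all 4 arrays. The 4 cholinergic, 8 hippocampal and 8 myelin genes had 0 at that threshold in either direction, and median differences of 0.06, -0.03 and 0.18. Of 8 endothelial genes 2 were higher and 0 lower, with a median of 0.20. Of the cortical excitatory genes 3 were lower with TCQA and 0 higher, Nrgn among them, a calmodulin-binding protein of dendritic spines, with 15.34 and 14.89 with TCQA and 15.96 and 15.67 in control. Of the hypothalamic genes 1 was lower and 0 higher, and of the choroid plexus genes 0 moved in either direction at that threshold. None of these genes passed limma with adjustment over all probe sets.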
